A study of Mus musculus with 24 samples.

Results

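The cytosolic ribosomal protein genes were examined in 4 brain areas of mice exposed to chronic mild stress (CMS) and of control mice. Members were the probe sets whose gene symbol in the platform annotation began with Rpl or Rps and a digit, or was Rpsa, Rplp0, Rplp1 or Rplp2, without the Rps6k kinases and the pseudogene symbols. This rule found 106 of 45037 probe sets and 50 of 18193 genes. It took 26 genes with large subunit names and 24 with small subunit names, and used no measured value. Of the 50 genes, 43 encode ribosomal proteins proper (22 of the large and 21 of the small subunit), 5 are paralogs (Rpl3l, Rpl22l1, Rpl39l, Rps27l and Rps4l) and 2 are other genes with related names (Rpl7l1 and Rps19bp1). A further 110 probe sets were assigned to a ribosomal protein gene together with another symbol, so they are counted below without a gene name, and ribosomal proteins measured only in that way, such as Rplp1, were not among the 50.

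RNA was measured on 24 one-colour Affymetrix mouse arrays in 8 groups of 3. The groups were CMS amygdala, CMS hippocampus, CMS prefrontal cortex (PFC) and CMS cerebral cortex, each beside the same area of control mice. All mice were wild-type C57BL/6 males aged 6 to 8 weeks at the start. CMS mice received unpredictable mild stressors on 6 days a week for 4 weeks, and control mice received none. The methods mention pooled RNA where the results speak of independent mice, so the p-values measure no more than how these arrays vary, which may be technical.

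The cytosolic ribosome consists of a small subunit, which decodes the mRNA, and a large subunit, which joins amino acids. Each subunit holds ribosomal RNA and a fixed set of proteins that are made in matched amounts, and proteins left without a partner are degraded. Most of their mRNAs begin with a run of pyrimidines at the 5′ end, through which the mTOR pathway sets how strongly they are translated. In neurons they are found in cell bodies, dendrites and axons.

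Values were log2 signals centred for each probe set, so that 0 was its median over all arrays. They compare arrays with each other and carry no absolute level, so the levels of different genes cannot be ranked and no filter on low signals was possible: all 50 members were tested. Each gene was given by its probe sets averaged, and differences are given as CMS minus control on this log2 scale. A gene was called where limma gave a Benjamini-Hochberg adjusted p under 0.05 over all 18193 genes. With 3 arrays against 3, an exact permutation test of a single gene cannot go below p = 0.1, so only this model was used for calls.

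The markers of each area were checked against the labels. The mean of 10 hippocampus markers lay between 2.82 and 3.03 on the log2 scale in the hippocampus arrays of both treatments, and was 0.35 or lower on all other arrays. The mean of 8 cortex markers was highest in the cerebral cortex arrays, and the mean of 8 amygdala markers was highest in the amygdala arrays. Arrays within a group correlated at most at 0.928, and all 24 were kept as separate samples. In bulk tissue, fewer cells of a type and less RNA per cell cannot be told apart.

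The direction of the CMS difference in ribosomal protein genes depended on the brain area. In the cerebral cortex, 21 of 50 members were higher with CMS and 0 lower, and in the PFC 11 were higher and 0 lower. In the hippocampus 24 were lower and 0 higher, and in the amygdala 7 were higher and 7 lower. Of all genes, 5.95% were called higher and 3.99% lower in the cerebral cortex, 4.45% and 3.92% in PFC, 4.66% and 24.9% in hippocampus, and 10.5% and 8.84% in amygdala. Where 0 members were called by limma, an unadjusted p under 0.05 gave 0 lower in cerebral cortex, 2 lower in PFC and 0 higher in hippocampus, and the methods' t-test with Benjamini-Hochberg adjustment also called 0 of each. All these differences were small. No member was called past a 2-fold change in any area, where 0.192% of all genes passed upwards and 0.165% downwards in the cerebral cortex, 0.154% and 0.0934% in PFC, 0.143% and 0.11% in hippocampus, and 0.143% and 0.44% in amygdala.

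**Figure D1:**
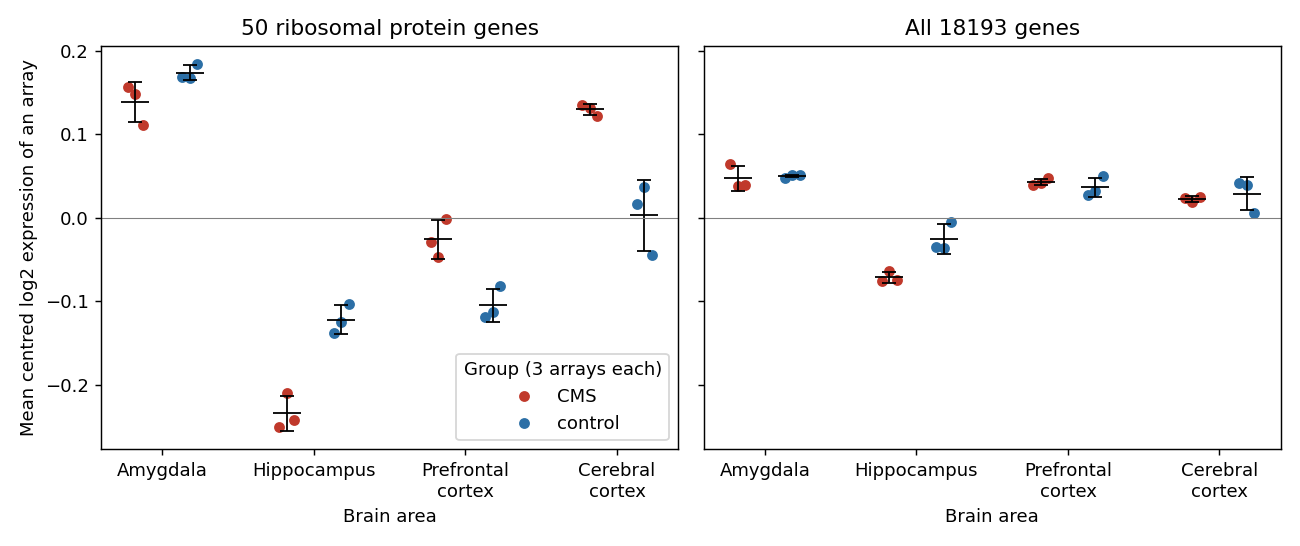
Mean centred log2 expression per array (y axis) of the 50 ribosomal protein genes (left) and of all 18193 genes (right) in 4 brain areas, with CMS arrays in red and control arrays in blue, 3 each; bars show the mean and SD. The members' mean lies lower in CMS than in control arrays in the hippocampus and higher in the PFC and cerebral cortex, and the 3 CMS arrays do not overlap the 3 control arrays in any area.

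The mean over the 50 members in each array followed this order. The cerebral cortex had 0.13, 0.13 and 0.12 in the CMS arrays, against 0.016, 0.037 and -0.045 in the control arrays. In the PFC it was -0.029, -0.047 and -0.0011 in the CMS arrays, against -0.12, -0.11 and -0.082 in the control arrays. In the hippocampus the values were -0.25, -0.21 and -0.24 with CMS, against -0.14, -0.13 and -0.10 in control arrays. In the amygdala the mean was 0.16, 0.15 and 0.11 with CMS, against 0.17, 0.17 and 0.18 in control arrays. The 3 CMS arrays stood apart from the 3 control arrays in all 4 areas, by the smallest gap in the amygdala, where calls went in both directions.

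The effect of CMS differed between the areas for 41 of 50 members in an F-test over all 24 arrays, against 52.3% of all genes. With the arrays numbered 1, 2 or 3 left out of every group, 26, 26 or 30 members differed, against 24.7%, 18.6% or 42.9% of all genes. Across areas, 18 of the 50 were called higher in at least 1 area and lower in another, against 8.88% of all genes, and none was called in the same direction in all 4 areas, against 0.236%. The commonest such pair was higher in the cerebral cortex and lower in the hippocampus, which held for 11 members and 0.896% of all genes. A further overlap was higher in both cortical areas (7 members, against 1.08% of all genes), and 5 members were lower in both the amygdala and the hippocampus, against 1.96%. These patterns were counted only with the values as deposited and all probe sets of a gene averaged. With arrays centred on their median, 6 members were lower in the hippocampus, against 6.23% of all genes. With probe sets of the plain ending _at only, 1 of 27 members was higher in the cerebral cortex, against 4.62% of all genes so measured. The comparisons in different areas share no arrays but may share mice, which the F-test did not take into account. With arrays of the same treatment and number taken as 1 mouse, the consensus correlation was -0.092. In no area were 12 members called, against 51.3% of all genes, and these were Rpl4, Rpl8, Rpl14, Rpl19, Rpl27, Rpl37a, Rpl38, Rpl41, Rps2, Rps3, Rps9 and Rps16.

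**Figure D2:**
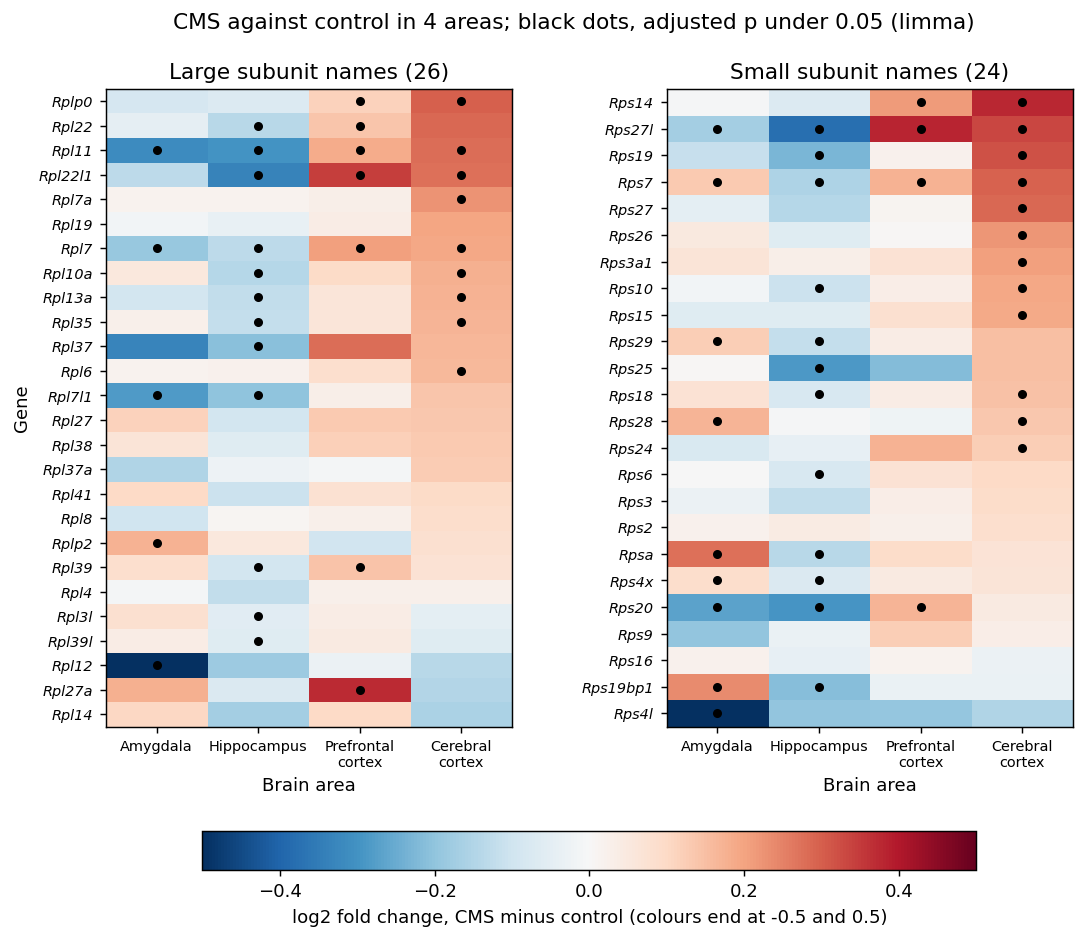
Log2 fold change, CMS minus control, of each member (rows) in 4 brain areas (columns), by large (left) and small (right) subunit name and sorted by the cerebral cortex; red is higher with CMS, blue lower, and black dots mark an adjusted p under 0.05 (limma). Dots lie on blue cells in the hippocampus and on red cells in the PFC and cerebral cortex, and on both in the amygdala.

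The members with the smallest p for a difference between areas were Rps27l, Rpl7, Rps7, Rpl22l1 and Rps19. Of the 50 members, 44 had a promoter in the RefSeq table (GRCm38.p6), and 15 of the 18 members with opposite calls had one that could be printed. The 8 of these with the smallest p are shown, since they carry the contrast between areas. Each line gives 10 bases before and 20 from the annotated transcription start, 5′ to 3′ on the gene's strand, with the longest run of pyrimidines in capitals.
Rps27l: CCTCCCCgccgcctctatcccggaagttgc
Rps7: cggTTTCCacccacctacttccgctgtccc
Rpl22l1: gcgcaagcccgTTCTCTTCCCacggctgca
Rps19: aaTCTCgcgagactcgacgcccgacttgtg
Rpsa: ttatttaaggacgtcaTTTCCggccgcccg
Rpl11: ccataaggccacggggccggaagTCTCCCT
Rps10: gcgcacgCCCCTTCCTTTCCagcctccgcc
Rps18: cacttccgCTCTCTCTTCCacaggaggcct

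These windows lie at chr9:66946076-66946105 on the plus strand (Rps27l), chr12:28635934-28635963 on the minus strand (Rps7), chr3:28805498-28805527 on the plus strand (Rpl22l1) and chr7:24884582-24884611 on the plus strand (Rps19). The others lie at chr9:120127756-120127785 on the plus strand (Rpsa), chr4:136053374-136053403 on the minus strand (Rpl11), chr17:27635225-27635254 on the minus strand (Rps10) and chr17:33955646-33955675 on the minus strand (Rps18). Each spans the upstream flank and the start of the transcript. The pyrimidine run was 13 bases long in Rps10, 11 in Rps18 and 10 in Rpl22l1, and 4 to 7 in the other windows. CTTTC or CTTTT on the gene strand, in the 20 bases before and 30 from the start, was found for 17 of 44 members (38.6%) and for 12.8% of all 27025 genes with a promoter in the table. CCGGAAG, the core of the sites bound by ETS factors, was found on either strand of the 300 bases for 21 of 44 members (47.7%), against 9.93% of all genes. TATAAA, searched on both strands in the same way, was found for 6 of 44 members (13.6%), against 15.7% of all genes. Of the 8 genes printed, Rps7, Rpsa and Rps10 held CTTTC or CTTTT near the start, and all but Rpl22l1 and Rps19 held CCGGAAG. The Rps27l start is not the outermost in the annotation. A match is a description of the sequence only.

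Rps27l is a paralog of the small subunit gene Rps27 and a target of p53. In the hippocampus it read -0.35, -0.30 and -0.32 with CMS, against 0.041, 0.045 and 0.082 in control arrays, a difference of -0.38 ± 0.020 (SE, limma adjusted p = 0.00391). In the PFC it read -0.048, -0.015 and -0.00069 with CMS, against -0.46, -0.40 and -0.35 in control arrays, a difference of 0.38 ± 0.034 (SE, limma adjusted p = 0.00774). CMS and control arrays did not overlap in either area, and the signs were opposite. Rps27l in the cerebral cortex read 0.24, 0.24 and 0.20 with CMS, against -0.084, -0.061 and -0.18 in control arrays, a difference of 0.33 (limma adjusted p = 0.00866). In the amygdala it read 0.0021, 0.027 and -0.0023 with CMS, against 0.15, 0.21 and 0.17 in control arrays, a difference of -0.17 (limma adjusted p = 0.0086). Rps27l was thus called in all 4 areas, and it kept its call in each area when any array of that area was left out. Its 3 probe sets all end in _x_at or _a_at, which can also bind related transcripts, and they gave the same sign as each other in every area.

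Rpl22l1, the paralog of Rpl22, showed the same signs. It read -0.44, -0.38 and -0.31 in CMS hippocampus, against -0.065, -0.082 and 0.014 in control hippocampus, a difference of -0.33 ± 0.043 (SE, limma adjusted p = 0.0133). In the PFC it read -0.024, -0.014 and -0.068 with CMS, against -0.41, -0.37 and -0.37 in control arrays, a difference of 0.35 ± 0.023 (SE, limma adjusted p = 0.00401). Neither pair of groups overlapped. Rpl22l1 differed by 0.27 in the cerebral cortex (limma adjusted p = 0.00963), and by -0.13 in the amygdala, where it did not pass (limma adjusted p = 0.174). Rpl7, a large subunit protein, was lower by 0.19 in amygdala and by 0.13 in hippocampus, and higher by 0.20 in PFC and 0.19 in cerebral cortex, with limma adjusted p between 0.0041 and 0.0283 in the 4 areas.

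Rps7, a small subunit protein needed to mature 18S rRNA, was the member called higher in the most areas. It was higher with CMS by 0.13 in amygdala, 0.17 in PFC and 0.30 in cerebral cortex, and lower by 0.15 in hippocampus. Cerebral cortex arrays read 0.21, 0.25 and 0.23 with CMS, against -0.082, -0.046 and -0.067 in control arrays (limma adjusted p = 0.00381). In the hippocampus it read -0.37, -0.33 and -0.39 with CMS, against -0.21, -0.24 and -0.18 in control arrays (limma adjusted p = 0.0173). All 3 CMS arrays were above the controls in the cerebral cortex and below them in the hippocampus. Rpl11, which with 5S rRNA can bind the p53 regulator Mdm2, differed by -0.31 in amygdala, -0.30 in hippocampus, 0.19 in PFC and 0.28 in cerebral cortex, and passed in all 4. Rpl7, Rpl11 and Rps27l were the 3 members called lower in amygdala and hippocampus and higher in both cortical areas. These calls were not equally firm when an array of the area was left out. Rpl11 then kept its call in 1 of 6 fits in the hippocampus and in 0 of 6 in the PFC. Rpl7 kept it in 1 of 6 fits in the hippocampus and in 3 of 6 in the cerebral cortex. Rps7 kept it in 1 of 6 fits in both the amygdala and the PFC, and in 3 of 6 in the hippocampus.

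**Figure D3:**
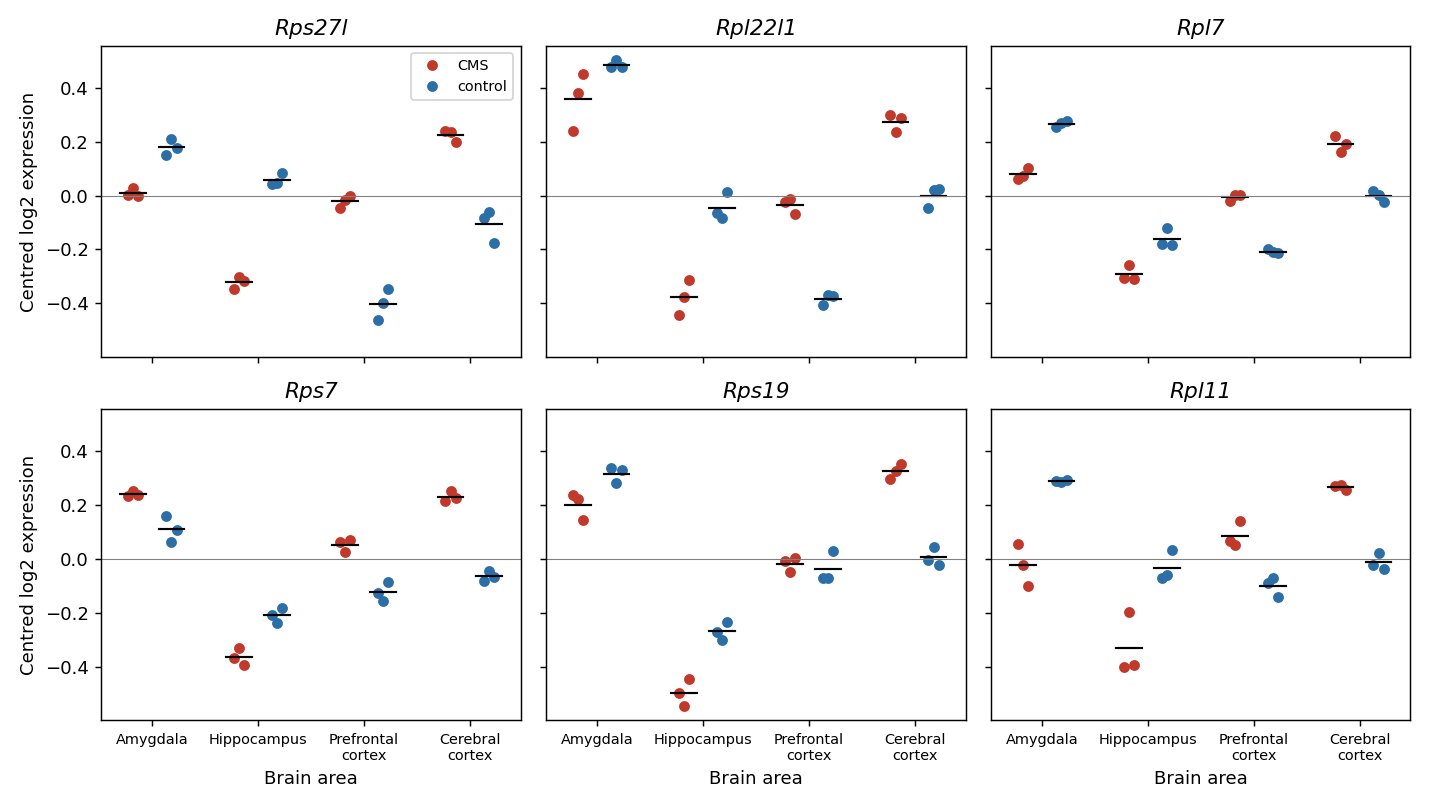
Centred log2 expression (y axis) of 6 members in each array of 4 brain areas, with CMS arrays in red and control arrays in blue, 3 each; black lines are means. Rps27l, Rpl22l1, Rpl7, Rps7, Rps19 and Rpl11 all lie lower with CMS in the hippocampus and higher in the cerebral cortex, and all but Rps19 are also called higher in the PFC.

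In the cerebral cortex, the 21 members that were higher included 9 with large and 12 with small subunit names, with differences of 0.12 to 0.38. The median difference of the 50 members was 0.14, against -0.031 for all genes, and 42 of the 50 differences were positive. Arrays did not overlap for 32 members with CMS above control and for 3 with CMS below, where 14.3% and 37.8% of all genes did so.

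Rps14, a protein of the small subunit platform, showed the greatest difference of the members called in this area. It read 0.52, 0.58 and 0.53 in the CMS arrays, against 0.16, 0.21 and 0.12 in the control arrays, and the difference was 0.38 ± 0.035 (SE, 1.3-fold, limma adjusted p = 0.00541). Rps19, which is mutated in Diamond-Blackfan anaemia in humans, read 0.30, 0.33 and 0.35 with CMS, against -0.0034, 0.043 and -0.021 in control arrays (difference 0.32 ± 0.029 SE, limma adjusted p = 0.00536). In both genes each CMS array was above every control array. Rplp0, which anchors the stalk that recruits elongation factors, read 0.23, 0.20 and 0.21 with CMS, against -0.059, -0.012 and -0.18 in control arrays (difference 0.30, limma adjusted p = 0.0222). Rps27, Rpl11 and Rpl22l1 were higher by 0.29, 0.28 and 0.27. The other stalk protein measured, Rplp2, differed by 0.08 and did not pass (limma adjusted p = 0.39).

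Rps6, the small subunit protein phosphorylated by S6 kinases, read 0.60, 0.0012 and 0.042 in the CMS cerebral cortex, against 0.25, 0.026 and 0.073 in the control cerebral cortex. A single array in each group was high, the groups overlapped, and the difference of 0.10 was within this spread (limma adjusted p = 0.688). Rpsa, the laminin receptor precursor that also sits in the small subunit, differed by 0.07 and did not pass (limma adjusted p = 0.163).

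The cerebral cortex result depended on the kind of probe set. Of the members' 106 probe sets, 71 end in _s_at, _x_at or _a_at, codes for probes that can match several transcripts of a gene, of its family or elsewhere, and 35 have the plain ending _at. Among the 71, 46 were higher with CMS (median difference 0.20), against 8.46% of all such probe sets on the array. Among the 35 plain ones, 1 was higher (median -0.017), against 4.75% of all plain probe sets. Over both kinds, 47 of 106 were higher and 0 lower, where 5.49% and 3.67% of all probe sets were. The 110 probe sets shared with another symbol gave 42 higher and 0 lower.

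With plain probe sets only, 27 members could be measured. Of these 1 was higher, and the median difference turned to -0.030. Of the 21 members called, 14 had no plain probe set, and of the 7 that had 1 or more, 1 kept its call, 2 lost it and 4 had the opposite sign. In the 11 members with both kinds, the median of the s, x and a probe sets was 0.22 and that of the plain ones was -0.040, and the s, x and a value was the higher in 8 of the 11. Some plain probe sets hardly varied at all: 11 of 35 had an SD under 0.1 over the 24 arrays, where 5 of the 71 others did. Whether cross-binding had a part in the difference was not tested.

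**Figure D4:**
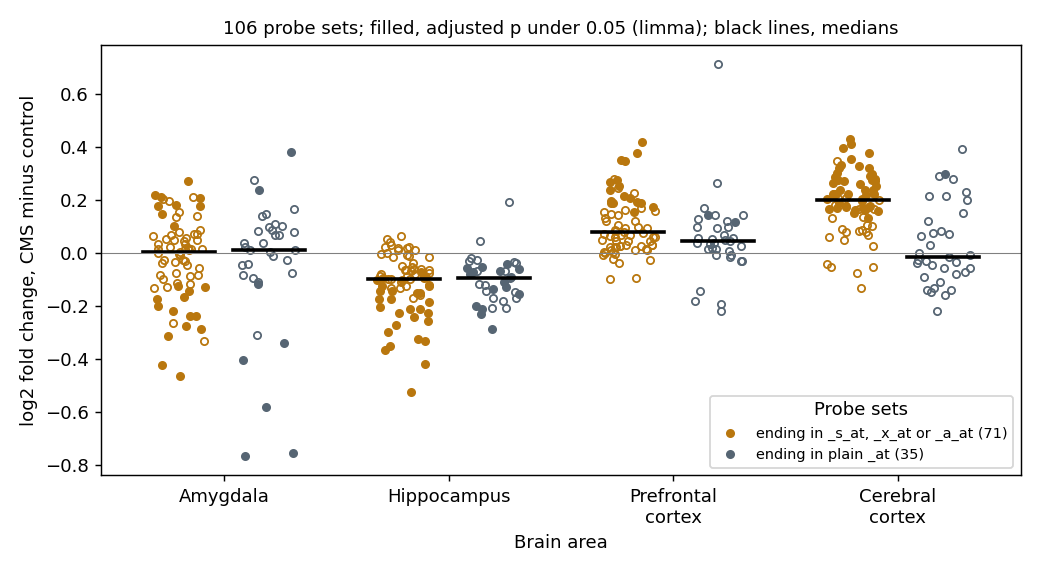
Log2 fold change, CMS minus control (y axis), of the 106 probe sets of ribosomal protein genes in 4 brain areas, split into 71 ending in _s_at, _x_at or _a_at (orange) and 35 ending in plain _at (grey); filled points have an adjusted p under 0.05 (limma) and black lines are medians. The kinds part in the cerebral cortex, where 46 of 71 orange and 1 of 35 grey points are called higher, and lie close together in the hippocampus. In the PFC 17 of 71 orange and 2 of 35 grey points are called higher.

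Other measures moved with CMS in the cerebral cortex. All 9 choroid plexus markers measured were lower, and their mean per array was between -1.44 and -1.37 with CMS, against 1.69 to 1.73 in control arrays. Of 8 striatum markers, 7 were higher, with array means of -0.74 to -0.68 with CMS and -2.17 to -1.94 in control arrays. Higher, too, were 4 of 9 microglia, 4 of 9 oligodendrocyte, 3 of 9 astrocyte and 2 of 9 neutrophil markers. Of 11 neuron markers, 4 were higher and 1 lower (array means 0.021 to 0.042 with CMS and -0.13 to -0.069 in control arrays). The 3′ minus 5′ signal of Actb, a measure of RNA integrity, was -0.41 ± 0.042 with CMS and 0.19 ± 0.099 in control arrays (SD, n = 3 each), with no overlap. That of Gapdh was -0.041 ± 0.0059 with CMS and 0.12 ± 0.031 in control arrays. The poly-A spike-in controls averaged 0.035 ± 0.017 with CMS and 0.48 ± 0.18 in control arrays (SD, n = 3 each). Neither overlapped between the groups. The part of the tissue taken, of the choroid plexus, of these other cells, of RNA quality and of the spike-in controls in the members' difference was not tested. Without the CMS replicates 1, 2 or 3 the count of higher members was 9, 8 or 7, against 2.68%, 2.44% or 2.45% of all genes, and without control replicates 1, 2 or 3 it was 8, 10 or 21, against 3.44%, 3.53% or 5.73%. Rpl11, Rpl22l1, Rps7, Rps14, Rps19 and Rps27l passed in all 6 of these fits.

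In the PFC, the 11 members that were higher with CMS were Rps27l, Rpl27a, Rpl22l1, Rps14, Rpl7, Rpl11, Rps7, Rps20, Rpl39, Rpl22 and Rplp0, with differences of 0.12 to 0.38. The median difference of the 50 members was 0.059, against 0.019 for all genes, and 43 of 50 differences were positive. Arrays did not overlap for 29 members with CMS above control, against 35.2% of all genes, and for 3 with CMS below, against 12.8%. At the probe set level 19 of 106 were higher and 0 lower, where 2.78% and 2.48% of all probe sets were, and 16 of the 110 shared probe sets were higher. Here, too, the kinds of probe set differed. Of the 71 with the s, x and a endings 17 were higher (median 0.080), against 4.8% of all such probe sets. Of the 35 plain ones 2 were higher (median 0.045), against 2.27%. In the 11 members with both kinds, the medians were 0.11 for the s, x and a probe sets and 0.030 for the plain ones.

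Rpl27a, a large subunit protein, read -0.039, -0.25 and -0.26 in CMS PFC, against -0.52, -0.60 and -0.56 in control PFC, a difference of 0.37 ± 0.068 (SE, limma adjusted p = 0.036). Rps14 read -0.061, -0.047 and -0.0017 with CMS, against -0.29, -0.24 and -0.22 in control arrays, a difference of 0.21 ± 0.028 (SE, limma adjusted p = 0.0163). In both genes every CMS array was above every control array. The 2 probe sets of Rpl27a differed by 0.033 and 0.71 (limma adjusted p = 0.331 and 0.0569). Neither was called, so its gene mean blends unlike values. With an array of the area left out, Rpl27a kept its call in 1 of 6 fits and Rps14 in 2 of 6. Rpl27a differed by -0.15 in the cerebral cortex, where it did not pass (limma adjusted p = 0.27). Rps25, a small subunit protein used in initiation from internal entry sites, differed by -0.22 in the PFC and did not pass (limma adjusted p = 0.33). Its CMS arrays spread widely, at -0.50, -0.15 and -0.090, against 0.025, -0.039 and -0.070 in control arrays.

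Of 9 neutrophil markers, 6 were higher in CMS PFC, with array means of 3.44 to 3.69 with CMS and 0.71 to 0.80 in control arrays, and 4 of 9 choroid plexus markers were lower (array means -0.97 to -0.88 with CMS and 0.15 to 0.37 in control arrays). Lower, too, were 4 of 9 oligodendrocyte markers (array means -0.29 to -0.26 with CMS and -0.079 to -0.026 in control arrays) and 4 of 8 striatum markers, of which 1 was higher (array means 0.75 to 0.77 with CMS and 0.90 to 0.94 in control arrays). The poly-A spike-in controls averaged 0.032 ± 0.022 with CMS and -0.55 ± 0.094 in control arrays (SD, n = 3 each). The Actb 3′ minus 5′ signal was -0.067 ± 0.071 with CMS and 0.13 ± 0.076 in control arrays (SD, n = 3 each). Their part in the members' difference was not tested. Without CMS replicate 1, 2 or 3 the count was 5, 4 or 5, against 1.48%, 1.75% or 1.81% of all genes, and without control replicate 1, 2 or 3 it was 7, 5 or 8, against 2.13%, 1.73% or 3.13%. Rpl7, Rpl22l1, Rps20 and Rps27l passed in all 6 fits.

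In the hippocampus, 24 of the 50 members were lower with CMS, 12 of each subunit name, and their differences ranged in size between 0.058 and 0.38. The median difference of the 50 was -0.10, against -0.048 for all genes, and 44 of 50 differences were negative. Arrays did not overlap for 32 members with CMS below control, against 48.2% of all genes, and for none with CMS above, against 8.16%. Most genes on these arrays thus lay lower with CMS. When each array was centred on its median over all probe sets, 6 of 50 members were lower, against 6.23% of all genes, and the members' median was -0.060. Quantile normalization likewise gave 6 of 50, against 7.09% of all genes.

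After Rps27l and Rpl22l1, the members with the greatest decreases in the hippocampus were Rpl11, Rps20 and Rps25. Rps20, a protein of the small subunit head, read -0.31, -0.27 and -0.37 with CMS, against -0.039, -0.045 and 0.014 in control arrays, a difference of -0.29 ± 0.032 (SE, limma adjusted p = 0.0097). Rps25 read -0.21, -0.23 and -0.32 with CMS, against 0.077, 0.0063 and 0.016 in control arrays (difference -0.29 ± 0.038 SE, limma adjusted p = 0.0135). Rpl11 read -0.40, -0.20 and -0.39 with CMS, against -0.069, -0.061 and 0.033 in control arrays (difference -0.30, limma adjusted p = 0.034). None of the 3 overlapped between groups, and CMS replicate 2 was the nearest to the controls for Rpl11. Rps19 was lower by 0.23, Rpsa by 0.14 and Rps6 by 0.08, all 3 past the test.

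Both kinds of probe set were lower in the hippocampus: 30 of 71 with the s, x and a endings (median -0.098), against 28.9% of all such probe sets, and 16 of 35 plain ones (median -0.094), against 36.5%. Together 46 of 106 were lower and 0 higher, where 35% and 5.68% of all probe sets were, and 41 of the 110 shared probe sets were lower. Of 9 choroid plexus markers, 3 were higher (array means 2.69 to 2.80 with CMS and 2.26 to 2.44 in control arrays), of 11 neuron markers 5 were higher and 1 lower (array means -0.24 to -0.18 with CMS and -0.31 to -0.25 in control arrays), and of 10 hippocampus markers 4 were lower and 1 higher. The 3′ minus 5′ signal was -0.49 ± 0.046 with CMS and -0.44 ± 0.016 in control arrays for Actb, and -0.12 ± 0.0098 with CMS and -0.061 ± 0.031 in control arrays for Gapdh. The hybridisation controls averaged -1.48 ± 0.022 with CMS and -1.11 ± 0.041 in control arrays, and the poly-A controls -4.11 ± 0.011 with CMS and -4.02 ± 0.025 in control arrays (SD, n = 3 each). None of these 4 measures overlapped between the groups, and the part of these measures and markers was not tested. Without CMS replicate 1, 2 or 3 the count of lower members was 4, 10 or 7, against 6.53%, 5.82% or 3.61% of all genes, and without control replicate 1, 2 or 3 it was 6, 8 or 23, against 4.25%, 5.19% or 27.6%. Rpl22l1, Rps20, Rps25 and Rps27l passed in all 6 fits.

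In the amygdala the members moved in both directions. Lower with CMS were Rpl12, Rps4l, Rpl11, Rpl7l1, Rps20, Rpl7 and Rps27l, by 0.17 to 0.75. Higher were Rpsa, Rps19bp1, Rplp2, Rps28, Rps7, Rps29 and Rps4x, by 0.086 to 0.27. The median difference of the 50 was 0.00029, against 0.022 for all genes, and it was below 0 when arrays were centred on their median (-0.025) or quantile-normalized (-0.041). Arrays did not overlap for 15 members with CMS above control, against 39.7% of all genes, and for 14 with CMS below, against 15.5%.

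Rpl12, which lies at the base of the large subunit stalk, had the greatest difference of any member in any area. It read -0.43, -0.087 and -0.23 in the CMS amygdala, against 0.59, 0.52 and 0.40 in the control amygdala, a difference of -0.75 ± 0.10 (SE, 1.68-fold lower, limma adjusted p = 0.0117). Rps4l, a paralog of Rps4x, read 0.25, 0.24 and 0.14 with CMS, against 0.77, 0.76 and 0.85 in control arrays (difference -0.58 ± 0.041 SE, limma adjusted p = 0.00261). Every CMS array was below every control array in both genes, and each gene has a single, plain probe set. Neither passed in another area.

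Among the increases in the amygdala, Rpsa read 0.37, 0.36 and 0.28 with CMS, against 0.068, 0.041 and 0.077 in control arrays, a difference of 0.27 ± 0.027 (SE, limma adjusted p = 0.00536). Rplp2, an acidic stalk protein, read 0.14, 0.14 and 0.15 with CMS, against -0.058, -0.027 and -0.0053 in control arrays (difference 0.18 ± 0.018 SE, limma adjusted p = 0.00578). Neither gene overlapped between groups. Rplp0, its partner in the stalk, differed by -0.08 and did not pass (limma adjusted p = 0.11). Rps19bp1, which shares the name but encodes a protein that binds Rps19, was higher by 0.24, and Rps28 by 0.17.

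In 2 genes, probe sets of the same gene were called in opposite directions in the amygdala. For Rps20 they ranged between -0.76 and 0.18 and for Rpl22 between -0.42 and 0.22, so the gene means of both blend unlike values. Over all member probe sets, 11 were higher and 20 lower of 106, where 11.4% and 6.88% of all probe sets were, and of the 110 shared ones 17 were higher and 3 lower. Of 9 oligodendrocyte markers, 6 were lower (array means -0.38 to -0.33 with CMS and -0.013 to 0.095 in control arrays), and 7 of 8 striatum markers were higher (array means 1.33 to 1.35 with CMS and 0.99 to 1.01 in control arrays). Of 8 amygdala markers, 5 were lower and 1 higher (array means 0.43 to 0.57 with CMS and 0.72 to 0.75 in control arrays), and 4 of 9 astrocyte markers were lower (array means -0.00091 to 0.050 with CMS and 0.22 to 0.24 in control arrays). The 3′ minus 5′ signal was 0.072 ± 0.017 with CMS and -0.023 ± 0.031 in control arrays for Actb, and 0.13 ± 0.039 with CMS and -0.00015 ± 0.022 in control arrays for Gapdh. The hybridisation controls averaged 0.82 ± 0.075 with CMS and 0.015 ± 0.0046 in control arrays (SD, n = 3 each), again with no overlap. The part of these cells, of the tissue taken and of these controls was not tested. Leaving out CMS replicate 1 gave 11 lower and 7 higher members, against 10.1% and 10% of all genes. Leaving out CMS replicate 2 or control replicate 1, 2 or 3 left 2, 3, 2 and 2 higher members, against 6.74%, 3.92%, 3.47% and 3.85% of all genes. Rpl7, Rpl7l1, Rpl11, Rplp2, Rps4l, Rps27l and Rpsa passed in all 6 fits.

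The large and the small subunit had medians of the same sign in the hippocampus and in both cortical areas. For the cerebral cortex the median difference was 0.15 for the 22 large subunit proteins and 0.14 for the 21 of the small subunit, with 8 and 11 members higher. In the hippocampus the medians were -0.10 and -0.079, with 8 and 10 lower. In the PFC they were 0.091 and 0.039, with 6 and 3 higher. In the amygdala they were 0.0039 and 0.0044, both near 0, and the means over each subunit differed in sign: the large subunit averaged 0.11 ± 0.024 with CMS and 0.16 ± 0.013 in control arrays, and the small subunit 0.17 ± 0.029 with CMS and 0.16 ± 0.014 in control arrays (SD, n = 3 each), the second difference being within the SD. Of the amygdala calls, 1 large subunit protein was higher and 3 lower, and 5 small subunit proteins were higher and 1 lower. There, 10.5% of all genes were higher and 8.84% lower, and these counts are too small to set the subunits apart. Of all genes, 5.95% were higher in the cerebral cortex, 24.9% lower in the hippocampus and 4.45% higher in the PFC. The difference between the subunits was not tested, since members of a list are not replicates.

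**Figure D5:**
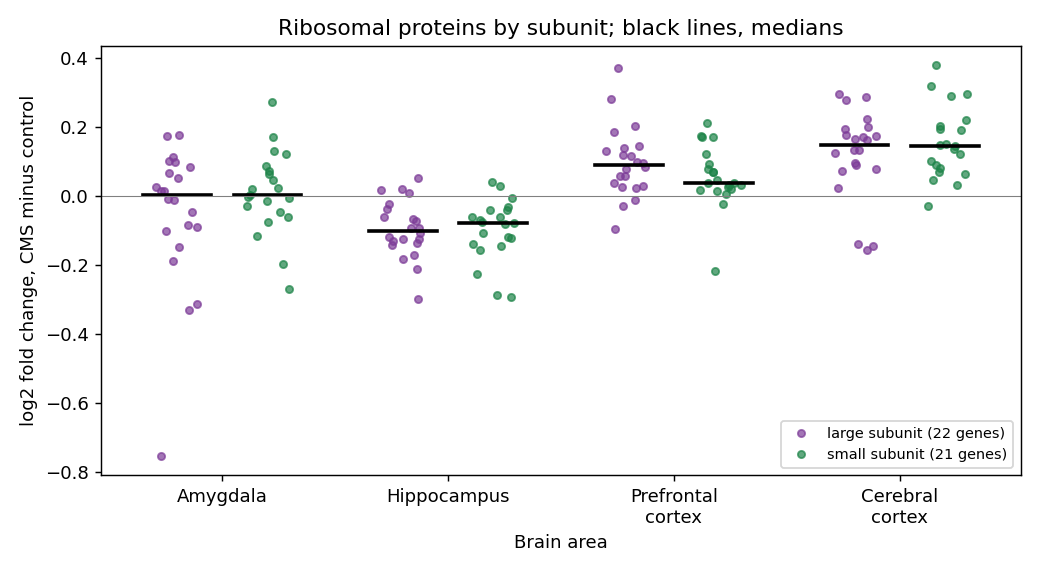
Log2 fold change, CMS minus control (y axis), of 22 large (purple) and 21 small (green) subunit proteins in 4 brain areas; each point is a gene and black lines are medians. The medians of the subunits have the same sign in every area and lie furthest apart in the PFC (0.091 large, 0.039 small), and the lowest point is Rpl12 in the amygdala.

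Array by array, the mean of the large minus the small subunit was -0.056 ± 0.012 in the CMS amygdala and 0.0059 ± 0.019 in the control amygdala, and the 3 arrays of each did not overlap. The cerebral cortex gave -0.026 ± 0.012 with CMS and 0.0086 ± 0.012 in control arrays, again with no overlap. In the PFC it was 0.016 ± 0.028 with CMS and -0.025 ± 0.015 in control arrays, and in the hippocampus -0.021 ± 0.025 with CMS and -0.025 ± 0.026 in control arrays (SD, n = 3 each). Single members in the amygdala ran between -0.75 and 0.27. The lowest, Rpl12, has a single probe set and is 1 of the 22 genes in the large subunit mean. That mean was not computed without Rpl12, so the amygdala values do not show a shift of the whole subunit.

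The 7 paralogs and related names gave 1 higher and 3 lower in the amygdala, 6 lower in the hippocampus, and 2 higher in each cortical area. In the pairs, Rps27 differed by -0.05, -0.14, 0.01 and 0.29 in amygdala, hippocampus, PFC and cerebral cortex, and Rps27l by -0.17, -0.38, 0.38 and 0.33. Rpl22 differed by -0.05, -0.14, 0.14 and 0.29 and Rpl22l1 by -0.13, -0.33, 0.35 and 0.27 in the same order of areas. By these gene means the paralog had the greater size in each area but the cerebral cortex for Rpl22l1. In the amygdala the Rpl22 mean blends probe sets of -0.42 to 0.22, so the sizes of that pair cannot be ranked there. Rps27 has a single, plain probe set, while the 3 of Rps27l all end in _x_at or _a_at. Rpl7 and Rpl7l1, a related protein of pre-ribosomes, parted in the PFC, where they differed by 0.20 and 0.03. Rps4x and Rps4l parted in the amygdala, where Rps4x was higher by 0.09 and Rps4l lower by 0.58.

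Rpl39l, a paralog of Rpl39 known from testis, and Rpl3l, a paralog of Rpl3 known from heart and skeletal muscle, differed by no more than 0.08 in any area. Their SD over the 24 arrays was 0.040 and 0.045, and that of Rps16 was 0.023. These are values that hardly moved between any of the samples, so the calls of Rpl39l and Rpl3l in the hippocampus rest on differences of -0.06.

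Over the 24 arrays, members varied together. The median Pearson correlation of a member with the mean of the other 49 was 0.814, and 40 of 50 were above 0.5. With the mean of each area taken out it was 0.621, and 33 were above 0.5. The points share arrays, treatment and normalization, so these values are a description. Least like the others were Rplp2 (-0.07), Rps16 (-0.06) and Rps4l (-0.01). With area means taken out, Rps27l was the most like the rest (0.928).

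Among control mice alone, 45 of 50 members differed between areas, against 58.1% of all genes. The hippocampus arrays stood apart on the spike-in controls: in control mice the poly-A controls averaged -4.02 in the hippocampus and between -0.55 and 0.48 in the other areas, and the hybridisation controls -1.11 in the hippocampus and between -0.17 and 0.15 in the others. Area and the handling of its arrays cannot be told apart here, and this holds for every comparison of areas above. The control amygdala was the highest area for 36 members and the lowest for none, and the hippocampus was the lowest for 27 and the PFC for 18. The medians of the control means were 0.13 (amygdala), -0.087 (hippocampus), -0.053 (PFC) and -0.0037 (cerebral cortex). The gap between the highest and lowest area had a median of 0.37 over the members, and ranged between 0.059 (Rps16) and 1.18 (Rps4l).

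Rpl22l1 had the smallest p between control areas. Its means were 0.49 ± 0.015 in amygdala, -0.044 ± 0.052 in hippocampus, -0.38 ± 0.021 in PFC and -0.00016 ± 0.041 in cerebral cortex (SD, n = 3 each; limma adjusted p = 5.63e-08). The hippocampus and the cerebral cortex lay within their spread of each other. Rpl7 and Rps20 had the same order of highest and lowest area, at 0.27 and 0.47 in the amygdala and -0.21 and -0.29 in the PFC. Rpl38 and Rpl8 were lowest in the hippocampus, at -0.54 ± 0.054 and -0.42 ± 0.024 (SD, n = 3), and neither differed beyond its spread between the control amygdala and cerebral cortex.

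Other genes of translation were counted in the same fits. Their counts are read against all genes, of which 24.9% were lower in the hippocampus, 4.45% higher in the PFC, 5.95% higher in the cerebral cortex, and 10.5% higher and 8.84% lower in the amygdala. Of 76 mitochondrial ribosomal proteins, which make up the separate ribosome of mitochondria, 28 were lower and 1 higher in the hippocampus (median -0.14), 13 were higher and 1 lower in the PFC (median 0.070), 6 were higher in the cerebral cortex (median 0.061), and 2 were higher and 7 lower in the amygdala. Mrpl57 was lower by 0.57 in the hippocampus and by 0.66 in the amygdala, and Mrps33 was higher by 0.38 in the cerebral cortex and 0.23 in the PFC. Of 30 initiation factors, 9 were lower in the amygdala, among them Eif2s3x (-0.93), a subunit of the factor that brings the initiator tRNA, and Eif4a1 (-0.72), an RNA helicase. In the hippocampus 5 of the 30 were lower, in the PFC 3 were higher, and in the cerebral cortex 4 were higher and 1 lower. Of 7 genes with elongation factor symbols (Eef), 3 were lower in the amygdala and none was called in the hippocampus. In each cortical area 1 was higher (Eef1e1). The symbol alone does not make each of these genes an elongation factor.

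Of 18 other mRNAs known to begin with a pyrimidine run, 6 were lower and 1 higher in the hippocampus, and 6 were higher in the PFC. In the cerebral cortex 5 were higher and 1 lower, and in the amygdala 3 were higher and 5 lower. This list is not separate from the others: it was drawn up with Eef and Eif genes of the lists above and with Npm1 of the ribosome biogenesis list. The snoRNA host gene Gas5 was higher by 0.46 in the PFC and 0.42 in the cerebral cortex, and Fau, which encodes the small subunit protein that the naming rule misses, was lower by 0.38 in the amygdala and higher by 0.13 in the PFC and 0.18 in the cerebral cortex. Of 45 ribosome biogenesis genes, 8 were lower in the hippocampus, a smaller share than that of all genes, 1 was higher and 1 lower in the PFC, 3 were higher and 3 lower in the cerebral cortex, and 3 were higher and 4 lower in the amygdala. A list of the mTOR pathway and of other translational control had 23 genes measured. Of these, 3 were higher and 2 lower in amygdala, 2 and 2 in hippocampus, 0 and 1 in PFC, and 0 and 3 in cerebral cortex. Of 31 proteasome subunits, which degrade surplus proteins, 11 were higher and 1 lower in the PFC, 7 and 2 in the cerebral cortex, 2 and 4 in the hippocampus, and 1 and 5 in the amygdala.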

How the data were processed

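The authors ran GCRMA and a baseline normalization in GeneSpring GX, of versions not given in the sources used here. Their deposited values are on a log2 scale, and in every probe set the median over the 24 arrays is 0. Arrays carry no read depth, and precision is limited by the number of arrays. Affymetrix controls (64 probe sets) did not enter the tests. Of the other 45037, 34945 have 1 gene symbol in the platform annotation, 932 several and 9160 none, and probe sets of 1 symbol were averaged to 18193 genes. Each area was tested on its own, CMS minus control, in limma 3.58.1 (R 4.3.3, two-sided). F-tests of fits over all 24 arrays, and over the control arrays, compared areas.

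The fit was tested on simulated data: in the cerebral cortex, 62% of 50 genes changed by 0.4 and 20% of 50 changed by 0.2 were recovered among 18193. The members and lists were chosen with earlier results of these data known. Named genes were the 5 largest called increases and decreases per area with no overlap between arrays, the smallest p between areas, paralog pairs, stalk proteins, Rps6, Rpsa, the members least like the others and those with opposing probe sets, while further genes were picked as examples once values were known. Alternatives were quantile normalization, median centring, the most variable probe set per gene, plain probe sets, the more variable 50% of probe sets, eBayes trend and robust options, a fit of all arrays, the methods' t-test, a replicate block, a random block for the mouse (using statmod 1.5.0), and leaving out each array. The s, x and a probe sets alone and the 43 ribosomal proteins proper are alternatives chosen after seeing the data.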

Additional observations from a re-analysis of the deposited data

Results flagged for a closer look

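The effect of CMS differed between the 4 areas for 41 of 50 ribosomal protein genes by the F-test in limma, against 52.3% of all genes. The 5 with the smallest p are given by the range of their log2 fold changes over the areas. It was 0.76 for Rps27l (limma adjusted p = 3.88e-10), 0.39 for Rpl7 (7.26e-09), 0.45 for Rps7 (1.85e-07), 0.68 for Rpl22l1 (2.47e-07) and 0.55 for Rps19 (4.91e-07). With 3 arrays a group, single arrays far from their group were not looked for.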

How the results depend on the processing

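The members' median kept its sign under every alternative in the hippocampus and PFC, and under all but plain probe sets in the cerebral cortex (-0.030). In the amygdala, where it was 0.00029, it turned with quantile normalization (-0.041), median centring (-0.025), the more variable probe sets (-0.054), the s, x and a probe sets (-0.0041) and some left-out arrays (range -0.034 to 0.030). Quantile normalization gave 6 lower in the hippocampus (median -0.038) and 3 higher in the amygdala, against 7.09% and 7.59% of all genes. Median centring gave 6 lower in the hippocampus (median -0.060) and 3 higher in the amygdala, against 6.23% and 6.96% of all genes. Its medians were 0.040 in the PFC and 0.17 in the cerebral cortex. The most variable probe set gave 12 lower in the hippocampus (median -0.075), against 15.8% of all genes, and a median of 0.16 in the cerebral cortex.

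Plain probe sets, which measure 27 members, gave 11 lower in the hippocampus, against 27% of all genes so measured. In the amygdala they gave 2 higher and 4 lower, against 9.78% and 7.76%. They gave 3 higher in the PFC (median 0.037) and 1 higher in the cerebral cortex, against 3.29% and 4.62%. With them, 17 members had an effect that differed between areas and 18 differed between control areas. The s, x and a probe sets alone gave 14 lower of 34 in the hippocampus, against 16.4% of all genes so measured. Their medians were 0.095 in the PFC and 0.18 in the cerebral cortex. The more variable probe sets, which measure 36 members, gave 6 lower in the hippocampus and 2 higher in the amygdala. Of all genes so measured, 10.3% and 10.6% were. They gave 7 higher in the PFC (median 0.082), against 5.63%, a median of 0.17 in the cerebral cortex and 25 whose effect differed. The 43 ribosomal proteins proper held 4 of the lower calls in the amygdala, against 8.84% of all genes. The fit of all 24 arrays gave 12 lower there, against 12.3%, and the methods' t-test gave 6 higher in the PFC, against 1.61%.

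The replicate block left 0 lower in the hippocampus, 2 higher and 4 lower in the amygdala, 0 higher in the PFC and 5 higher in the cerebral cortex. With it, 0% of all genes were lower in the hippocampus and 0.22% higher in the PFC. In the amygdala 2.79% of all genes were higher and 3.62% lower, and in the cerebral cortex 1.9% were higher. An unadjusted p under 0.05 in these fits gave 28 lower members in the hippocampus and 20 higher in the PFC. The share of all genes at that unadjusted p was not counted, so these 2 counts have nothing to be read against. Deviations of same-numbered CMS and control arrays correlated between -0.065 and 0.027 in 12 pairs, so the numbers were not taken to pair samples. With an array left out, the hippocampus had 4 to 23 lower, the amygdala 2 to 7 higher and 5 to 11 lower, the PFC 4 to 8 higher (median 0.050 to 0.074) and the cerebral cortex 7 to 21 higher (median 0.12 to 0.16). Leaving out a replicate number gave 26 to 30 members whose effect differed and 33 to 46 that differed between control areas. The causes were not tested. The centred table holds no brightness, so what dim signals limit could not be measured.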
